A study of Mus musculus with 23 samples.

Results

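MHC class I and interferon response genes were read in the hippocampus of 23 mice, as the 9 genes B2m, H2-K1, H2-D1, Tap1, Irf7, Ifit1, Ifit3, Ifitm3 and Bst2. They were chosen by their gene symbols from the 19733 genes of the FPKM table, and each was present once. FPKM is a level of mapped fragments scaled by transcript length and library size. The 9 Ctrl mice received a control liquid diet and the 7 EtOH mice an ethanol liquid diet, and the 7 EtOH-UA mice received the ethanol diet together with urolithin A, a gut bacterial metabolite of ellagic acid. According to the methods of the study the animals were male C57BL/6J mice that entered at an age of 6 weeks and were treated for 16 weeks before 1 week of behavioural tests. Urolithin A was given daily by oral gavage at 200 mg/kg/day in CMC-Na, and the Ctrl and EtOH mice received the CMC-Na vehicle alone, so the ethanol diet and the vehicle were shared by EtOH and EtOH-UA mice. The labels give all mice as WT. The diets were the liquid AIN93M formula, and the samples used here hold no mice with urolithin A on the control diet. Each value comes from a whole piece of hippocampus and therefore mixes neurons, glia and vessels.

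MHC class I molecules carry peptides from inside the cell to its surface, where T cells inspect them. A molecule consists of a heavy chain, such as those encoded by H2-K1 and H2-D1, and the light chain β2-microglobulin encoded by B2m, and it is loaded with peptides that the transporter of Tap1 and Tap2 moves into the endoplasmic reticulum. Interferons are signals released on infection or tissue stress that act through JAK and STAT proteins and IRF transcription factors and raise both the class I genes and a large set of antiviral genes. In the brain, microglia and vessel cells are known as the main sources of class I transcripts at rest, and class I proteins of neurons have been studied for their part in synapse remodelling.

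The samples were alike in scale. Summed over all genes, FPKM ran from 330456 to 361354 in Ctrl, from 327896 to 366930 in EtOH and from 333801 to 404609 in EtOH-UA mice. The highest sum belonged to 1 EtOH-UA mouse. It also had the highest FPKM of the 23 mice for B2m, H2-K1, H2-D1, Irf7, Ifitm3 and Bst2. Fold changes of these genes that involve EtOH-UA mice are therefore given with and without that mouse. All 8 hippocampal neuron markers were present, with sums between 2047 and 2563 FPKM in every mouse. The choroid plexus list (Ttr, Kl and 6 others) differed most between mice, from 7.91 to 7831 FPKM, and its median was 60.9 for Ctrl, 1283 for EtOH and 1864 for EtOH-UA mice. Summed markers of T and NK cells stayed at or below 1.58 FPKM and those of B cells at or below 0.31 FPKM, with Klrb1c and Ms4a1 at 0 in most mice.

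The 9 genes spanned a wide range of levels. B2m averaged 73.6 FPKM, H2-D1 19.3, H2-K1 14.8, Ifitm3 8.41, Ifit3 3.58, Bst2 3.12, Tap1 1.25, Irf7 0.987 and Ifit1 0.715 FPKM over the 23 mice. The order held in every mouse from B2m to H2-D1, H2-K1, Ifitm3 and Ifit3, and Bst2 exceeded Tap1 in 23 of 23. Ifit3 exceeded Bst2 in only 15 of 23 mice, so this pair could not be ordered beyond the spread. Tap1 exceeded Irf7 in 21 and Irf7 exceeded Ifit1 in 20 of 23. The ratio of the light chain to the heavy chain, B2m to H2-D1, had a median of 3.80 and ran from 3.12 to 4.67. The heavy chains themselves stayed closer together, with a ratio of H2-D1 to H2-K1 between 1.09 and 1.61 and a median of 1.35.

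Counting error was estimated for each gene. From the even steps of low FPKM values in 23 genes with 1 transcript, 1 FPKM corresponded to about 16.7 fragments per kilobase in a mouse, with quartiles of 15.2 and 17.1. On this scale a mouse held about 31.7 fragments of Ifit1, 36.9 of Irf7, 41.3 of Bst2, 61.9 of Tap1, 95.4 of Ifitm3 and 104 of Ifit3, against 400.2 of H2-K1, 678 of H2-D1 and 1059 of B2m. Counting alone would give a coefficient of variation of 17.7% for Ifit1, where 29.6% was seen within groups. For Irf7 the same values were 16.5% and 34.6%, for Bst2 15.6% and 34.8%, for Ifitm3 10.2% and 26.8%, for Ifit3 9.78% and 21.3% and for B2m 3.07% and 16.2%. Tap1 was the exception, at 12.7% and 13.4%, so almost all of its spread was of the size of counting error. Compared with the 500 genes of the most similar mean level, Tap1 had a larger standard deviation (log2 scale, within groups) than 5.8% of them. Ifitm3 exceeded 97.0% of its neighbours, Bst2 93.8%, H2-K1 93.4%, Ifit3 84.4% and B2m 80.4%.

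**Figure D1:**
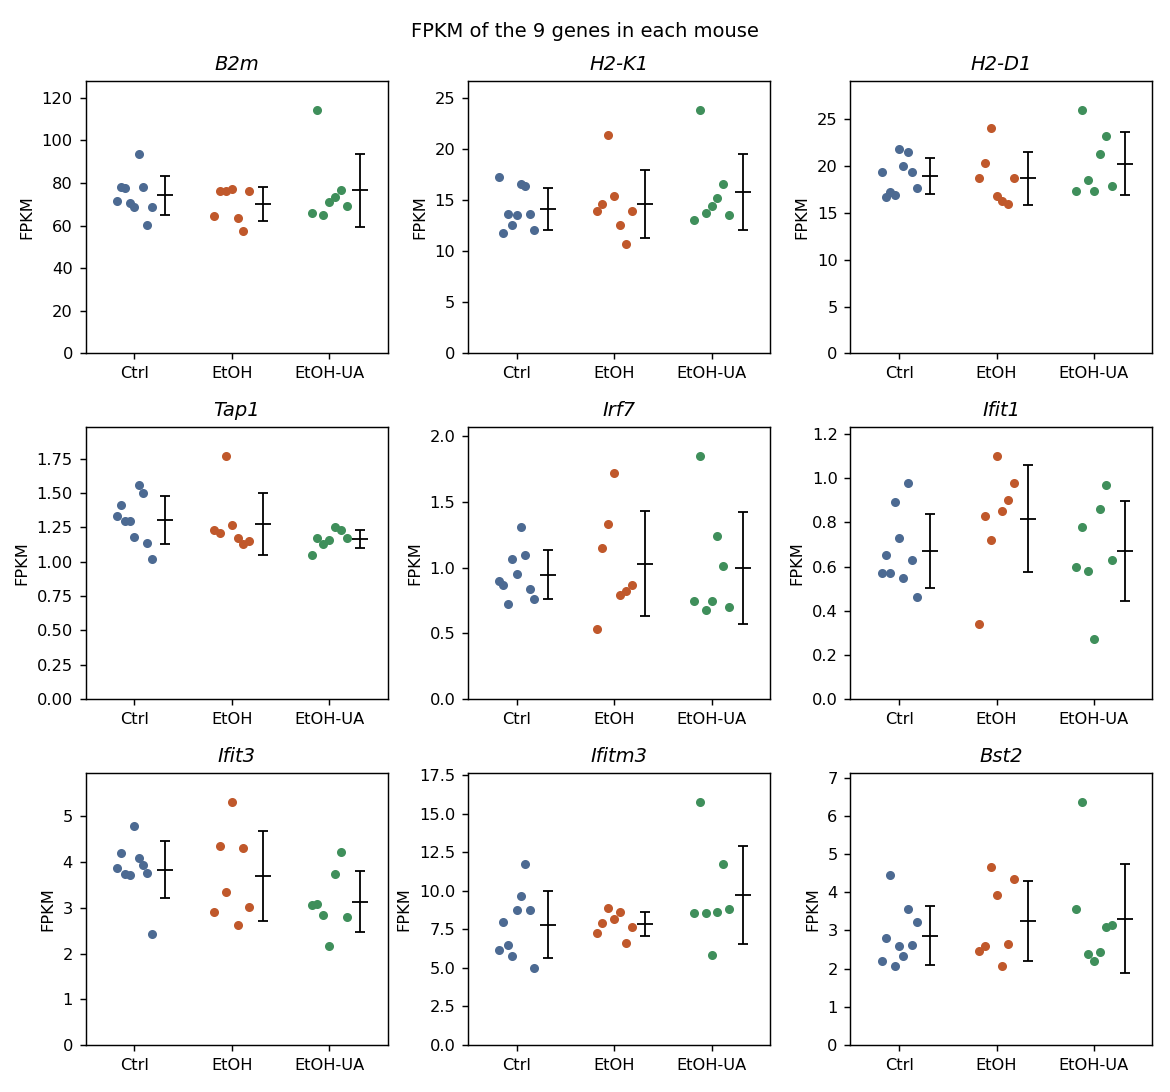
FPKM of the 9 genes (vertical axes, linear and starting at 0) in each mouse, grouped as Ctrl (9 mice), EtOH (7) and EtOH-UA (7); each point is 1 mouse and the black bar beside it is the mean with the SD. The groups overlap for every gene, and 1 EtOH-UA mouse lies above the others for B2m at 114 FPKM.

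Whether chronic ethanol, and urolithin A given with it, shifted these genes was asked in 3 comparisons: EtOH against Ctrl, EtOH-UA against EtOH and EtOH-UA against Ctrl. These share mice pairwise and are therefore not independent of each other. In bulk tissue, fewer cells of a type and less RNA per cell cannot be told apart. None of the 9 genes passed an adjusted p of 0.05 in any comparison (limma, Benjamini-Hochberg over 15985 genes whose mean was 0.1 FPKM or more). The same held for the whole table, where 0% of the genes were called in EtOH against Ctrl, 0% in EtOH-UA against EtOH and 0% in EtOH-UA against Ctrl. At an unadjusted p under 0.05, 0 of the 9 genes were counted in each comparison, against a background of 3.05% of all genes in EtOH against Ctrl, 3.27% in EtOH-UA against EtOH and 3.08% in EtOH-UA against Ctrl. No gene separated any pair of groups without overlap. The fold changes of the 9 genes ran from -0.08 to 0.22 (log2) for EtOH against Ctrl, with a median of 0.03 beside -0.00295 for all genes tested. They ran from -0.26 to 0.25 for EtOH-UA against EtOH, with a median of 0.00101 beside 0.00330, and from -0.29 to 0.30 for EtOH-UA against Ctrl, with a median of 0.03 beside 0.00238. All fold changes here are differences of mean log2(FPKM + 0.1), which understates the change of genes near or below 1 FPKM. The intervals given are 95% confidence intervals from limma, and the exact p is a two-sided exact permutation test over all splits of the mice of the groups compared, 11440 for 7 against 9 mice and 3432 for 7 against 7.

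**Figure D2:**
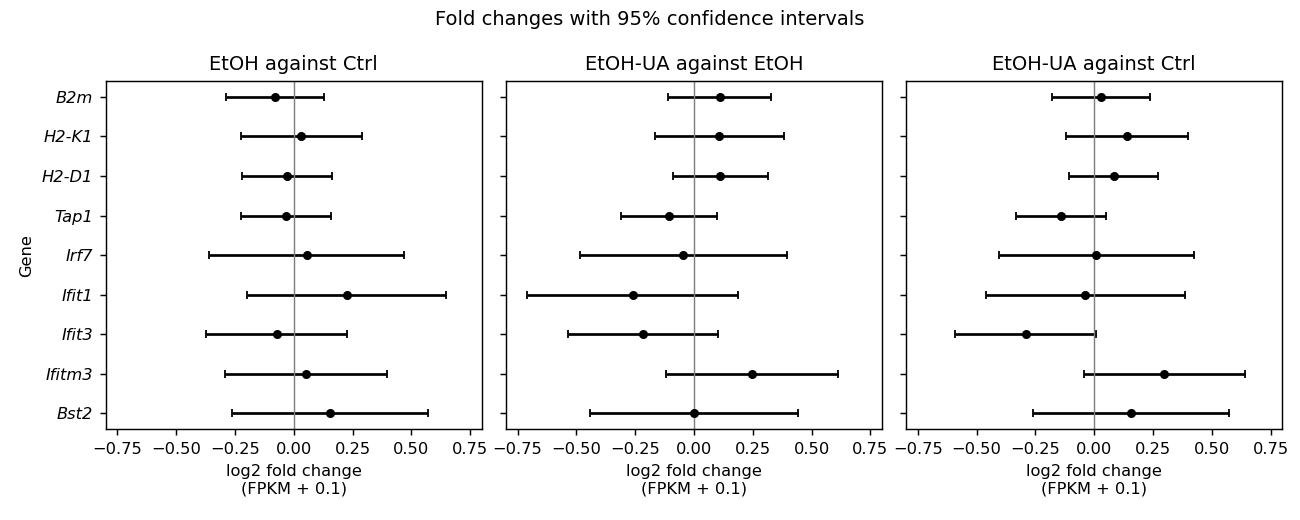
log2 fold changes (horizontal axes, on log2(FPKM + 0.1)) of the 9 genes in the 3 comparisons, with bars for the 95% confidence interval from the fit over all 23 mice. Every interval includes 0, and those of Ifit1, Bst2 and Irf7 are the widest.

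B2m, the class I light chain (RefSeq gene at chromosome 2, 122147687 to 122153082, GRCm38.p6), was the most abundant of the 9. Its FPKM ran from 60.4 over a median of 71.5 to 93.7 in Ctrl, from 57.3 over 76.1 to 77.1 in EtOH and from 64.7 over 71.2 to 114 in EtOH-UA mice. The groups overlapped almost fully, and only the highest EtOH-UA mouse stood apart from its group, whose next value was 76.8. The log2 difference was -0.08 (-0.29 to 0.13) for EtOH against Ctrl, with an exact p of 0.381. EtOH-UA exceeded EtOH by 0.11 (-0.11 to 0.33, exact p = 0.465), which became 0.00827 without that mouse. Against Ctrl the EtOH-UA value was 0.03 (-0.18 to 0.24, exact p = 0.815), and it turned to -0.07 without the mouse.

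H2-K1, a classical heavy chain on chromosome 17 (33996012 to 34000619), also overlapped between all groups. Ctrl mice lay between 11.8 and 17.3 FPKM with a median of 13.6, EtOH mice between 10.7 and 21.4 with a median of 13.9, and EtOH-UA mice between 13.1 and 23.8 with a median of 14.5. Within each ethanol group 1 mouse was well above the rest, and the remaining values overlapped with Ctrl. The difference of EtOH from Ctrl was 0.03 (-0.23 to 0.29, exact p = 0.808). EtOH-UA lay 0.11 above EtOH (-0.17 to 0.38, exact p = 0.502) and 0.14 above Ctrl (-0.12 to 0.40, exact p = 0.295), values that fell to 0.00476 and 0.04 when the EtOH-UA mouse with the highest summed FPKM was left out.

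H2-D1, the second classical heavy chain of this strain on the same chromosome (35263094 to 35267497), had the narrowest intervals together with Tap1. Its lowest, median and highest FPKM were 16.7, 19.4 and 21.9 among Ctrl, 15.98, 18.7 and 24.04 among EtOH and 17.4, 18.6 and 26.0 among EtOH-UA mice. Medians differed by less than the range within any group. EtOH differed from Ctrl by -0.03 (-0.22 to 0.16, exact p = 0.754), EtOH-UA from EtOH by 0.11 (-0.09 to 0.31, exact p = 0.361) and EtOH-UA from Ctrl by 0.08 (-0.11 to 0.27, exact p = 0.395). Without the EtOH-UA mouse with the highest summed FPKM the last 2 values were 0.05 and 0.02. Of the 100-base stretches of its longest GENCODE coding transcript 4.64% also occurred in transcripts of other genes, H2-Q1 and H2-T23 among them, whereas H2-K1 shared none at this length, so a small part of the H2-D1 reads could be assigned to relatives.

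Tap1, a subunit of the peptide transporter (chromosome 17, 34187556 to 34197225), showed the tightest group of all. The EtOH-UA mice had a coefficient of variation of 5.64%, which is below the 12.7% estimated for counting alone. The reason was not tested. FPKM ran from 1.02 over 1.30 to 1.56 in Ctrl and from 1.13 over 1.21 to 1.77 in EtOH mice. The 7 EtOH-UA mice lay between 1.05 and 1.25 with a median of 1.17, all below the Ctrl median but inside the Ctrl range. This gave -0.14 for EtOH-UA against Ctrl (-0.33 to 0.05, exact p = 0.0740), -0.11 against EtOH (-0.31 to 0.10, exact p = 0.225) and -0.03 for EtOH against Ctrl (-0.23 to 0.16, exact p = 0.737). The highest EtOH value, 1.77 FPKM, came from the same mouse as the highest EtOH values of H2-K1 and H2-D1. Tap2, which encodes the partner subunit and averaged 3.88 FPKM, moved by 0.00247 (-0.14 to 0.15) in EtOH-UA against Ctrl.

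Irf7, a transcription factor that amplifies type I interferon responses and is itself interferon-induced (chromosome 7, 141263183 to 141266499), varied widely in every group. Its FPKM was 0.72 at the lowest, 0.90 at the median and 1.31 at the highest among Ctrl, 0.53, 0.87 and 1.72 among EtOH and 0.68, 0.75 and 1.85 in EtOH-UA mice. The medians of both ethanol groups were below that of Ctrl, while their highest mice were above every Ctrl mouse. EtOH differed from Ctrl by 0.05 (-0.36 to 0.47, exact p = 0.785), EtOH-UA from EtOH by -0.05 (-0.48 to 0.39, exact p = 0.869) and EtOH-UA from Ctrl by 0.00878 (-0.40 to 0.42, exact p = 0.964). Without the EtOH-UA mouse with the highest summed FPKM the last 2 values were -0.20 and -0.14. The direction for EtOH against Ctrl turned to -0.00622 under quantile normalization.

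Ifit1 and Ifit3 encode cytoplasmic proteins with tetratricopeptide repeats that bind foreign RNA or join such complexes. They lie in the same region of chromosome 19 (Ifit3 at 34583119 to 34588982, Ifit1 at 34640889 to 34650009). The 250 bases before their start sites are printed because the core GAAANNGAAA, the part of the interferon-stimulated response element that IRF and STAT complexes are known to bind, occurs 2 times in each. Both strands were searched (TTTCNNTTTC on the other), and capitals mark the matches. The first bases of the matches lie 104 and 85 bases before the Ifit1 start and 156 and 122 bases before the Ifit3 start, and the matching letters are the same pair in both genes. The windows, from RefSeq promoters on GRCm38.p6, are chr19:34640639-34640888 for Ifit1 and chr19:34583279-34583528 for Ifit3, both on the plus strand. The Ifit3 start used here is base 34583529, which lies inside the gene span given above, since that span begins farther upstream.
Ifit1: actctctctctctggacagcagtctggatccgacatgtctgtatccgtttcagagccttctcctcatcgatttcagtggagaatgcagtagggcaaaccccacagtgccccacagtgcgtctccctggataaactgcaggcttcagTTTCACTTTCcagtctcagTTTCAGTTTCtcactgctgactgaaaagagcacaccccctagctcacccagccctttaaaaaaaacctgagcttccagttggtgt
Ifit3: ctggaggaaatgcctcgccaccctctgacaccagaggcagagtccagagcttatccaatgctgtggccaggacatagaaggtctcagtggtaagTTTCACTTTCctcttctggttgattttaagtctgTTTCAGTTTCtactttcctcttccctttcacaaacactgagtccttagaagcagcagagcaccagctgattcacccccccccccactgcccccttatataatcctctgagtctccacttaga

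The core was found in 3.44% of all 32851 promoter windows of 300 bases (250 before and 50 after the start) and 2 or more times, overlapping matches included, in 0.225%. B2m and Bst2 hold it before the start as well, and their windows are shown for comparison with the Ifit genes because B2m belongs to the class I arm. The B2m window, chr2:122147437-122147686 on the plus strand, has 1 match 139 bases before the start. The Bst2 window, chr8:71537473-71537722 on the minus strand, has 2 matches that overlap and begin 130 and 124 bases before the start.
B2m: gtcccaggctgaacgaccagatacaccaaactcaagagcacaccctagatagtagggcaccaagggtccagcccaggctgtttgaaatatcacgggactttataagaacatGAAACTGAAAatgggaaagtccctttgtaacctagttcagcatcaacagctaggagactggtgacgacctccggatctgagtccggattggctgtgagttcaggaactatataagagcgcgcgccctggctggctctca
Bst2: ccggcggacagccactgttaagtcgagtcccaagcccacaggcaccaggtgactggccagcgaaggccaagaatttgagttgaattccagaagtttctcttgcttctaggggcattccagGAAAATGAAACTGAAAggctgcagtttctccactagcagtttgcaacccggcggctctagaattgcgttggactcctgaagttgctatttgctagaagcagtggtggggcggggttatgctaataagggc

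In Ifitm3 the matches GAAAAGGAAA and GAAACCGAAA begin at bases 3 and 20 after the start. No match to the core lay in the windows of H2-K1, H2-D1, Tap1 and Irf7. Only exact matches were counted and other forms of the element were not searched, so such forms may be present. The H2-K1 and H2-D1 windows both hold agtttcacttct, which is not an exact match. Of 52 genes of the interferon-induced list with a window, 30 held the core in any of their windows. This is a count of genes, whereas the 3.44% above is a share of windows.

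Ifit1 had the lowest level of the 9 genes. Ctrl mice ranged from 0.46 to 0.98 FPKM with a median of 0.63, EtOH mice from 0.34 to 1.10 with a median of 0.85, and EtOH-UA mice from 0.27 to 0.97 with a median of 0.63. In the EtOH group 6 of 7 mice exceeded the Ctrl median and the remaining mouse was lower than every Ctrl mouse. EtOH differed from Ctrl by 0.22 (-0.20 to 0.65, exact p = 0.270), or by 0.39 without the lowest EtOH mouse. EtOH-UA differed from EtOH by -0.26 (-0.71 to 0.19, exact p = 0.350), or by -0.43 without the same mouse. EtOH-UA differed from Ctrl by -0.04 (-0.46 to 0.39, exact p = 0.863), or by 0.13 without the lowest EtOH-UA mouse. With each mouse left out in turn, EtOH-UA against EtOH ran from -0.43 to -0.0963 and EtOH against Ctrl from 0.15 to 0.39. Summed ependyma markers (Rarres2, Ccdc153 and 3 others), which mark the ciliated lining of the ventricles, also lay higher in EtOH, from 13.02 over 17.9 to 27.2 FPKM, than in Ctrl mice, from 6.73 over 9.82 to 16.9, with EtOH-UA mice from 7.88 over 15.8 to 23.4, and their part in the Ifit1 values was not tested.

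Ifit3 showed the closest approach to a difference. Its FPKM ran from 2.42 over 3.87 to 4.78 in Ctrl, from 2.63 over 3.34 to 5.32 in EtOH and from 2.17 over 3.07 to 4.22 in EtOH-UA mice. Only 1 of 7 EtOH-UA mice exceeded the Ctrl median, yet the groups overlapped over most of their range. The difference of EtOH-UA from Ctrl was -0.29 (-0.59 to 0.00902), with an adjusted p of 0.999 in limma and an exact p of 0.0545. On the linear FPKM scale the exact p was 0.0497, so the call at 0.05 depended on the scale. EtOH-UA differed from EtOH by -0.22 (-0.54 to 0.10, exact p = 0.236) and EtOH from Ctrl by -0.07 (-0.37 to 0.23, exact p = 0.645). Reads of Ifit3 can be shared with Ifit3b, since 31.7% of the 100-base stretches of the Ifit3 transcript also occurred there. Ifit3b, at a mean of 2.07 FPKM, changed by -0.11 (-0.35 to 0.14) in EtOH-UA against Ctrl, and Ifit2, at 2.89 FPKM, by -0.07 (-0.21 to 0.07).

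Ifitm3, a membrane protein that restricts the entry of viruses (chromosome 7, 141009590 to 141010744), went the other way. FPKM was 5.01 at the lowest, 7.96 at the median and 11.8 at the highest among Ctrl, 6.6, 7.91 and 8.88 among EtOH and 5.84, 8.62 and 15.8 in EtOH-UA mice. In the EtOH-UA group 6 of 7 mice exceeded the medians of both other groups, and all ranges overlapped. EtOH-UA lay 0.30 above Ctrl (-0.05 to 0.64, exact p = 0.179) and 0.25 above EtOH (-0.12 to 0.61, exact p = 0.196), which fell to 0.17 and 0.12 without the EtOH-UA mouse with the highest sum. EtOH differed from Ctrl by 0.05 (-0.29 to 0.39, exact p = 0.748). Its relative Ifitm2, at 7.50 FPKM, differed by 0.28 in EtOH-UA against EtOH (0.00632 to 0.56, exact p = 0.0524) and by 0.22 against Ctrl (-0.04 to 0.49), with adjusted p of 0.900 and 0.999 in limma.

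Bst2, which encodes tetherin, a protein that holds budding virus particles at the cell surface (chromosome 8, 71534255 to 71537472), had the largest within-group spread on the log2 scale, 0.43, just above Ifit1 and Irf7 at 0.42. Ctrl mice ranged from 2.06 to 4.46 FPKM with a median of 2.61, EtOH mice from 2.07 to 4.66 with a median of 2.65, and EtOH-UA mice from 2.20 to 6.37 with a median of 3.09. Lowest values were alike in the groups, and both the highest median and the highest mouse were found in the EtOH-UA group. EtOH lay 0.15 above Ctrl (-0.26 to 0.57, exact p = 0.440), EtOH-UA 0.16 above Ctrl (-0.26 to 0.57, exact p = 0.496) and 0.00101 above EtOH (-0.44 to 0.44, exact p = 0.997). Without the highest EtOH-UA mouse the last 2 values were -0.01 and -0.17.

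How the genes varied together among mice of the same group was examined with Pearson's r between deviations from the group means. Over the 23 mice all 36 pairs of the 9 genes had a positive r, with a median of 0.48. All stayed positive without the EtOH-UA mouse with the highest summed FPKM, and the lowest was then 0.06, for H2-K1 with Ifit1. In the 9 Ctrl mice alone not every pair was positive. Bst2 there had an r of -0.53 with Irf7, -0.25 with Ifit3, -0.15 with H2-K1 and -0.10 with Ifit1. It had -0.09 with H2-D1, -0.08 with Tap1, 0.09 with B2m and 0.08 with Ifitm3. B2m with Ifit1 gave -0.04 in these mice. The 6 pairs within the class I arm (B2m, H2-K1, H2-D1, Tap1) had a median r of 0.60 and ran from 0.47 to 0.83. In the 9 Ctrl mice alone they ran from 0.03 for B2m with H2-D1 to 0.80 for B2m with Tap1, and H2-D1 with Tap1 gave 0.18. Without the EtOH-UA mouse with the highest summed FPKM, B2m with H2-D1 went from 0.57 to 0.38 and B2m with Tap1 from 0.48 to 0.65. The 10 pairs among Irf7, Ifit1, Ifit3, Ifitm3 and Bst2 had a median of 0.48, from 0.09 to 0.64, and the 20 pairs between the arms 0.41, from 0.13 to 0.74. Over all genes the median r with a member lay between 0.00860 for Ifit1 and 0.0963 for H2-D1, while the 95th percentile was 0.66 for H2-K1 and 0.40 for Ifit3. Ranks given beside an r are those among the 15984 other genes.

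**Figure D3:**
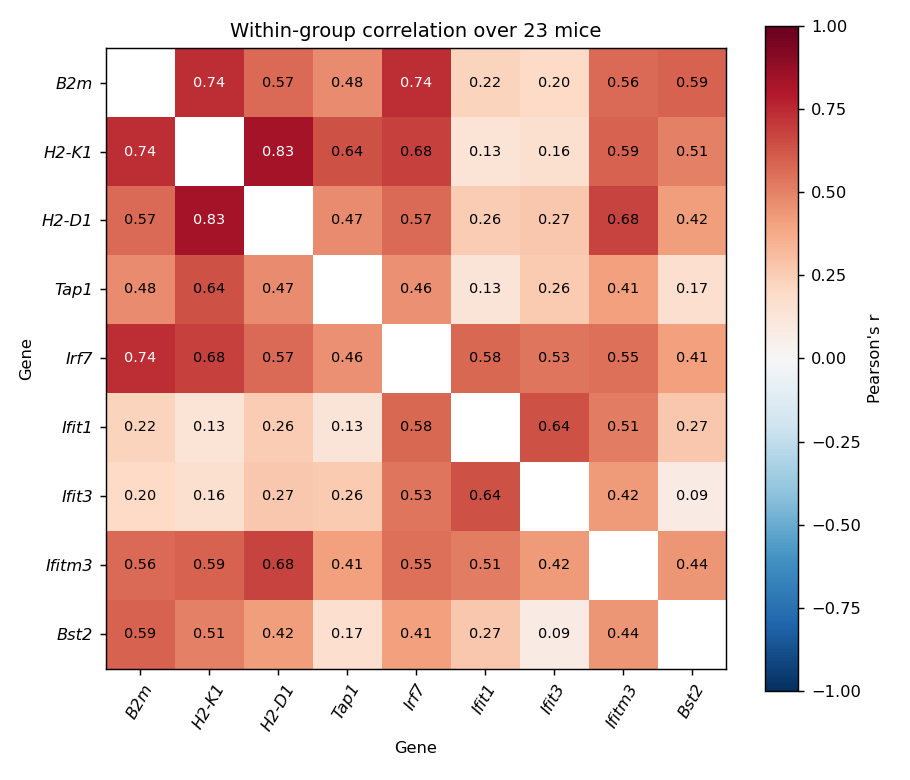
Pearson's r between each pair of the 9 genes (both axes) over 23 mice, computed on deviations of log2(FPKM + 0.1) from the group means; red stands for positive values and the colour scale runs from -1 to 1. The block of B2m, H2-K1, H2-D1 and Irf7 holds values from 0.57 to 0.83, while Ifit1 with H2-K1 gives 0.13.

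The heavy chains formed the closest pair. H2-K1 and H2-D1 gave r = 0.83 and rho = 0.82 (permutation p of 4e-05 and 2e-05), with an adjusted p of 0.00323 among all genes against H2-K1 and 0.00799 against H2-D1. Of 15984 genes, H2-K1 ranked 2 for H2-D1, and H2-D1 ranked 24 for H2-K1. Leaving out the 2 mice farthest from the H2-K1 median lowered r to 0.69, and the 9 Ctrl mice alone gave 0.66. Without the EtOH-UA mouse with the highest summed FPKM r was 0.78. B2m followed H2-K1 with r = 0.74 and rho = 0.64 (permutation p of 0.000490 and 0.00165). The adjusted permutation p was 0.0105 and 0.0437 against H2-K1, and 0.0430 and 0.0679 against B2m. The ranks were 224 against H2-K1 and 63 against B2m. For this pair r was 0.62 without the 2 farthest mice and 0.59 without the EtOH-UA mouse with the highest summed FPKM.

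Irf7 sat between the arms. It was correlated with B2m at r = 0.74 and rho = 0.72 (permutation p of 0.000340 for each, adjusted p of 0.186 and 0.139 against Irf7). Against Irf7 B2m ranked 15 of 15984 genes, and against B2m Irf7 ranked 68, with an adjusted permutation p of 0.0383 for r and 0.0489 for rho. With H2-K1, at rank 50, r was 0.68. Its r with Ifit1 was 0.58 and with Ifit3 0.53, at ranks of 375 and 687. Without the 2 mice farthest from the Irf7 median the values were 0.60 for B2m, 0.59 for H2-K1, 0.55 for Ifit1 and 0.52 for Ifit3. Leaving out only the EtOH-UA mouse with the highest summed FPKM gave 0.61, 0.55, 0.59 and 0.63 for the same genes.

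Ifit1 and Ifit3, the genes with the same pair of matches in their promoters, gave r = 0.64 and rho = 0.57 (permutation p of 0.002 and 0.00621, adjusted p of 0.281 and 0.433 against Ifit1). Ifit1 ranked 18 among the genes nearest to Ifit3 and Ifit3 ranked 66 among those nearest to Ifit1, and r was 0.54 without the 2 mice farthest from the Ifit1 median. The EtOH-UA mouse with the lowest Ifit1, 0.27 FPKM, also had the lowest Ifit3, 2.17 FPKM, and the Ctrl mouse with the lowest Ifit1, 0.46 FPKM, had the lowest Ifit3 of that group, 2.42 FPKM. In the EtOH group these were different mice, since the mouse with the lowest Ifit1, 0.34 FPKM, had 2.91 FPKM of Ifit3 and the one with the lowest Ifit3, 2.63 FPKM, had 0.85 FPKM of Ifit1. Toward the class I arm both genes gave low values: Ifit1 had an r of 0.22 with B2m, 0.13 with H2-K1, 0.26 with H2-D1 and 0.13 with Tap1, and Ifit3 one of 0.20, 0.16, 0.27 and 0.26. Among the genes against Ifit1 the 4 ranked between 3464 and 5836, and among those against Ifit3 between 2427 and 4499. Whether these values differ from those within the arm was not tested.

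**Figure D4:**
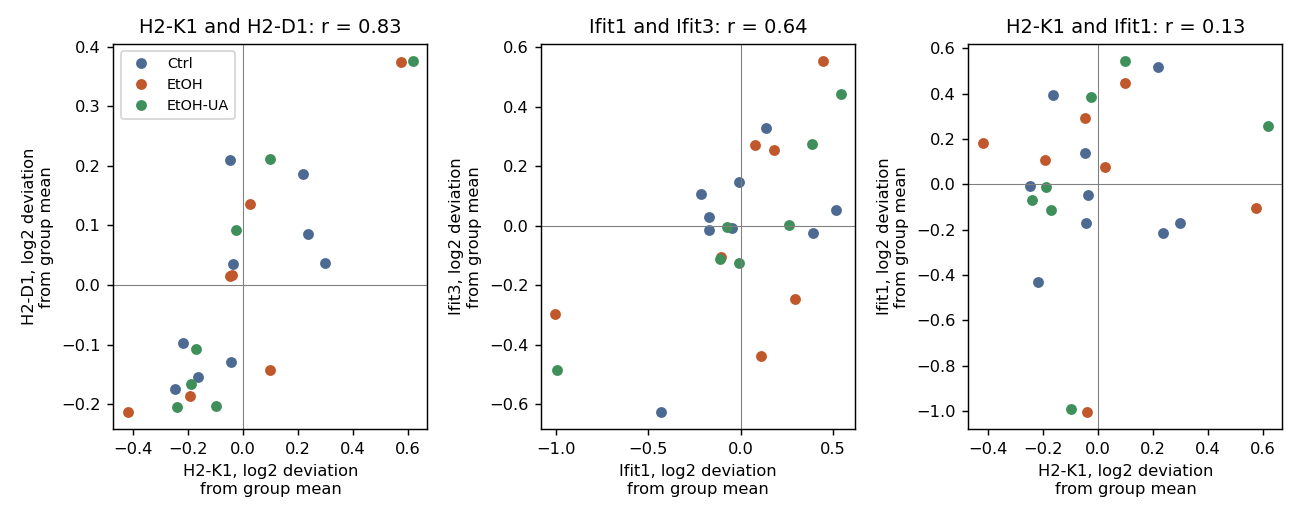
Deviations of log2(FPKM + 0.1) from the group mean for 3 pairs of genes (both axes), 1 point per mouse, coloured by group. H2-K1 and H2-D1 follow a line (r = 0.83), Ifit1 and Ifit3 follow one with more scatter and 2 low Ifit1 mice (r = 0.64), and H2-K1 and Ifit1 show no line (r = 0.13).

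Ifitm3 was nearest to H2-D1 among the 9, with r = 0.68 and rho = 0.62 (permutation p of 0.000180 and 0.00157, adjusted p of 0.0271 and 0.0865 against H2-D1) and a rank of 125 among the genes against H2-D1. Bst2 reached at most 0.59, with B2m (rank 478), and 0.33 for that pair without the EtOH-UA mouse with the highest sum. Without the same mouse Ifitm3 with H2-D1 gave 0.58. The counts that follow include that mouse. Counting over all genes, a positive r with an adjusted p under 0.05 was reached by 5 of the 8 other members against H2-K1, where the background was 15.1% of all genes, by 2 of 8 against H2-D1 (background 1.11%) and by 2 of 8 against B2m (0.619%). Against Tap1, Irf7, Ifit1, Ifit3 and Ifitm3 the count was 0 of 8 and the background 0% of all genes, and against Bst2 it was 0 of 8 with 1.25%. At an unadjusted permutation p under 0.05 with a positive r the counts were 6 of 8 for B2m (15.7% of all genes), 6 for H2-K1 (23.7%), 5 for H2-D1 (12.4%), 5 for Tap1 (5.71%), 7 for Irf7 (11%), 3 for Ifit1 (6.74%), 3 for Ifit3 (3.87%), 7 for Ifitm3 (5.18%) and 3 for Bst2 (8.54%).

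Markers of cell types moved with some of the genes and not with others. Over 135 relations of the 9 genes with 14 marker lists and the summed FPKM, H2-K1 and the microglia list (C1qa, C1qc and 7 others) gave the highest r, 0.87, with rho = 0.76 (permutation p of 2e-05 and 0.0001, adjusted p = 0.00270 for r), and 0.75 without the 2 mice farthest from the median microglia sum. The microglia list gave 0.70 with B2m and 0.70 with H2-D1 (permutation, adjusted p of 0.0234 and 0.0216), 0.57 with Irf7 and 0.48 with Tap1. Without the 2 farthest mice these values were 0.52, 0.49, 0.33 and 0.39. With Ifit1 it gave -0.12 and with Ifit3 0.05. The microglia sums themselves were alike in the groups, from 137 over 148 to 188 FPKM in Ctrl, from 124 over 150.5 to 180.5 in EtOH and from 131 over 156 to 207 in EtOH-UA mice, with no listed gene at 0 in most mice. Their part in the covariation of the class I genes was not tested.

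The endothelial list (Ly6c1, Slco1a4 and 6 others) gave an r of 0.77 with H2-K1, 0.67 with H2-D1 and 0.64 with B2m (permutation, adjusted p of 0.00810, 0.0234 and 0.0263), at sums between 77.8 and 115 FPKM over all mice. Without the 2 farthest mice these r values were 0.77, 0.70 and 0.54. For the members outside the class I arm other lists led. Ifitm3 had an r of 0.70 with perivascular macrophage and monocyte markers (Mrc1, Cd163 and 5 others, permutation, adjusted p = 0.0234), whose sums were only 1.39 to 4.50 FPKM. That r was 0.54 without the 2 farthest mice. Bst2 had an r of 0.62 with the choroid plexus list and 0.60 with markers of meninges and fibroblasts such as Dcn and Igf2 (permutation, adjusted p of 0.0234 and 0.0323). Without the 2 farthest mice these were 0.57 and 0.48. Ifit1 had an r of 0.66 with ependyma markers (adjusted p = 0.0234), and of 0.52 without the 2 mice farthest from the median. H2-K1 also followed the summed FPKM of all genes, with r = 0.69, which was 0.37 without the 2 farthest mice and 0.52 without the mouse with the highest sum. For Ifit3, Irf7 and Tap1 no marker list reached an adjusted p of 0.05 by r. By rho Irf7 did so with the oligodendrocyte list (Mbp and 3 others), at rho = 0.64 (permutation, adjusted p = 0.0414) beside r = 0.53 (adjusted p = 0.0603). Of the relations called by r, those of H2-K1 and H2-D1 with microglia, Bst2 with choroid plexus and Ifit1 with ependyma also passed by rho (permutation, adjusted p of 0.0135, 0.0385, 0.0432 and 0.0432). The others did not, with an adjusted p for rho of 0.0960 for B2m with microglia and H2-K1 with endothelial cells, 0.128 for H2-D1 and B2m with endothelial cells, Ifitm3 with perivascular macrophages and Bst2 with meninges, and 0.154 for H2-K1 with the summed FPKM.

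Outside the 9 and above a mean of 1 FPKM, the genes whose deviations were most like the mean of the class I arm were Ctsh, a lysosomal protease (r = 0.89), Ly6a, a surface protein of brain endothelium that is also interferon-induced (0.87), Tagln, a smooth muscle protein (0.86), Fcgrt, the class I-like Fc receptor that pairs with β2-microglobulin (0.84), and Vtn, a pericyte-rich secreted protein (0.84). For the mean of Irf7, Ifit1, Ifit3, Ifitm3 and Bst2 they were Gpnmb (0.76), Cat, which encodes catalase (0.76), Il20rb (0.75), Faah, which hydrolyses anandamide (0.75), and Ccdc134 (0.74). These values describe likeness over 23 mice among 12904 genes and were picked as the highest. The pericyte and smooth muscle list of 5 genes, Rgs5 and Acta2 among them, gave an r of 0.13 with B2m and -0.03 with H2-K1. With H2-D1 it gave -0.03 and with Tap1 0.26, none of them with an adjusted permutation p under 0.05.

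The wider pathway was read from gene lists. In the list of class I heavy chains, H2-K1 and H2-D1 included, 16 of 20 genes passed the filter at 0.1 FPKM. Of these 9 were higher in EtOH than in Ctrl, 7 in EtOH-UA than in EtOH and 7 in EtOH-UA than in Ctrl. The shares of all genes were 48.6%, 51.2% and 51.2%. Without the EtOH-UA mouse with the highest summed FPKM the last 2 counts were 5 and 8. None of the 16 passed after adjustment. In EtOH against Ctrl 2 were higher at an unadjusted p under 0.05, beside 311 of all 15985 genes tested. These were H2-Q2, at 0.61 (0.07 to 1.16, exact p = 0.0695) and a mean of 0.466 FPKM, and Mr1, which presents bacterial vitamin metabolites, at 0.37 (0.06 to 0.68, exact p = 0.0400) and 2.63 FPKM. In EtOH-UA against Ctrl H2-M5, a non-classical heavy chain, differed by -0.53 (-0.87 to -0.19, exact p = 0.00586). The relatives with the highest levels, H2-T24 (10.9 FPKM), H2-T23 (10.22), H2-T22 (9.03), H2-Q4 (5.02) and H2-Q6 (2.94), differed between EtOH and Ctrl by 0.21, -0.08, -0.10, 0.06 and 0.23, each with an interval that includes 0. H2-Q7 was listed at 0 in 3 mice and averaged 0.531 FPKM. The peptide loading list, with Calr (171 FPKM) as its most abundant gene, had 0 of 15 genes at an unadjusted p under 0.05 in every comparison. The MHC class II list, led by H2-DMa (5.89 FPKM), had 0 of 10. Over all genes this share was 3.05% to 3.27%. Of the 15 peptide loading genes 6 were higher in EtOH than in Ctrl, beside 48.6% of all genes, while for EtOH-UA against EtOH the count was 12 of 15, beside 51.2%. Without the EtOH-UA mouse with the highest summed FPKM the latter count was 7 of 15, and the median log2 difference went from 0.04 to -0.00927. The class II genes had a median of 0.14 in EtOH against Ctrl, with 7 of 10 higher, and of 0.02 in EtOH-UA against EtOH, with 6 of 10 higher, or -0.05 with 3 of 10 higher without the same mouse.

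Interferon genes themselves were barely seen. Of the 6 interferon ligands in the table none reached a mean of 0.1 FPKM, the highest single value being 0.11 FPKM for Ifnl2, and Ifng was listed at 0 in 20 of 23 mice. Ifna5 was listed at 0 in all 23. The receptors were well expressed, with Ifngr2 at 28.1, Ifnar2 at 11.2 and Ifnar1 at 10.19 FPKM. Of these receptors 0 of 5 tested had an unadjusted p under 0.05 in any comparison, beside 3.05% to 3.27% of all genes. The sixth, Ifnlr1, a receptor chain for type III interferons, was below the filter at a mean of 0.0783 FPKM and was chosen after its values were seen. It ran from 0 over 0.03 to 0.11 FPKM in Ctrl, from 0.06 over 0.09 to 0.22 in EtOH and from 0.04 over 0.09 to 0.15 in EtOH-UA mice. All 7 mice of each ethanol group exceeded the Ctrl median, and the groups overlapped (unadjusted exact p of 0.00219 for EtOH and 0.0126 for EtOH-UA against Ctrl). Among 15 signalling genes, led by Jak1 at 46.0 FPKM, Socs3, an inhibitor of JAK signalling, was higher in EtOH-UA than in Ctrl by 0.31 (0.06 to 0.56, exact p = 0.0198, limma adjusted p = 0.999). No other of the 15 had an unadjusted limma p under 0.05 in any comparison, beside 3.05% to 3.27% of all genes. Of the 15 sensors of nucleic acids, 1 had an unadjusted limma p under 0.05 in each comparison, beside 3.05% to 3.27% of all genes. None passed after adjustment. The kinase gene Tbk1 differed by -0.08 (-0.16 to -0.00384, exact p = 0.0231) in EtOH against Ctrl. The endosomal receptor gene Tlr7 differed by -0.22 (-0.44 to -0.00433, exact p = 0.0909) in EtOH-UA against EtOH. Its relative Tlr9 differed by -0.32 (-0.59 to -0.05, exact p = 0.0174) in EtOH-UA against Ctrl. In EtOH-UA against EtOH 4 of the 15 sensors were higher and 11 lower, with a median log2 difference of -0.04 beside 0.00330 over all genes, of which 51.2% were higher. In EtOH against Ctrl 7 were higher and 8 lower, and in EtOH-UA against Ctrl 6 were higher and 9 lower.

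The list of interferon-induced genes held 61 tested genes, Ifit1, Ifit3, Ifitm3 and Bst2 among them, while Irf7 was listed with the signalling genes. In EtOH against Ctrl 41 were higher and 20 lower, with a median log2 difference of 0.05 beside -0.00295 over all genes, of which 48.6% were higher. In EtOH-UA against EtOH 26 were higher and 35 lower (median -0.02 beside 0.00330, with 51.2% of all genes higher), and in EtOH-UA against Ctrl 33 were higher and 28 lower (median 0.01). None of the 61 passed after adjustment, and 3, 6 and 0 had an unadjusted p under 0.05 in the 3 comparisons, beside 3.05%, 3.27% and 3.08% of all genes. Without the EtOH-UA mouse with the highest summed FPKM 20 were higher and 41 lower in EtOH-UA against EtOH, and 29 were higher and 32 lower against Ctrl. Eif2ak2, the RNA-activated kinase PKR, was among them in both comparisons that share the EtOH mice: it averaged 3.29 ± 0.356 FPKM in Ctrl (SD, n = 9), 3.84 ± 0.600 in EtOH and 3.08 ± 0.414 in EtOH-UA mice (SD, n = 7 each). That gave 0.21 for EtOH against Ctrl (0.01 to 0.41, exact p = 0.0464) and -0.31 for EtOH-UA against EtOH (-0.52 to -0.10, exact p = 0.0227). Ifi27l2a had a median of 1.67 FPKM in EtOH and 0.88 FPKM in EtOH-UA mice, a log2 difference of -0.72 (-1.24 to -0.20, exact p = 0.00874) that did not pass adjustment (limma adjusted p = 0.900). In the same comparison Ifitm1 differed by 0.70 (0.10 to 1.30, exact p = 0.0443), Gbp3 by -0.28 (-0.55 to -0.00700, exact p = 0.1002) and Tgtp2 by -0.85 (-1.69 to -0.00370, exact p = 0.0985). The others were Lgals3bp at 0.39 (0.02 to 0.76, exact p = 0.0347) and Tgtp1 at 0.81 (0.02 to 1.59, exact p = 0.0649) in EtOH against Ctrl. Tgtp1 and Tgtp2 are near-identical neighbours, so their split of reads is uncertain.

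**Figure D5:**
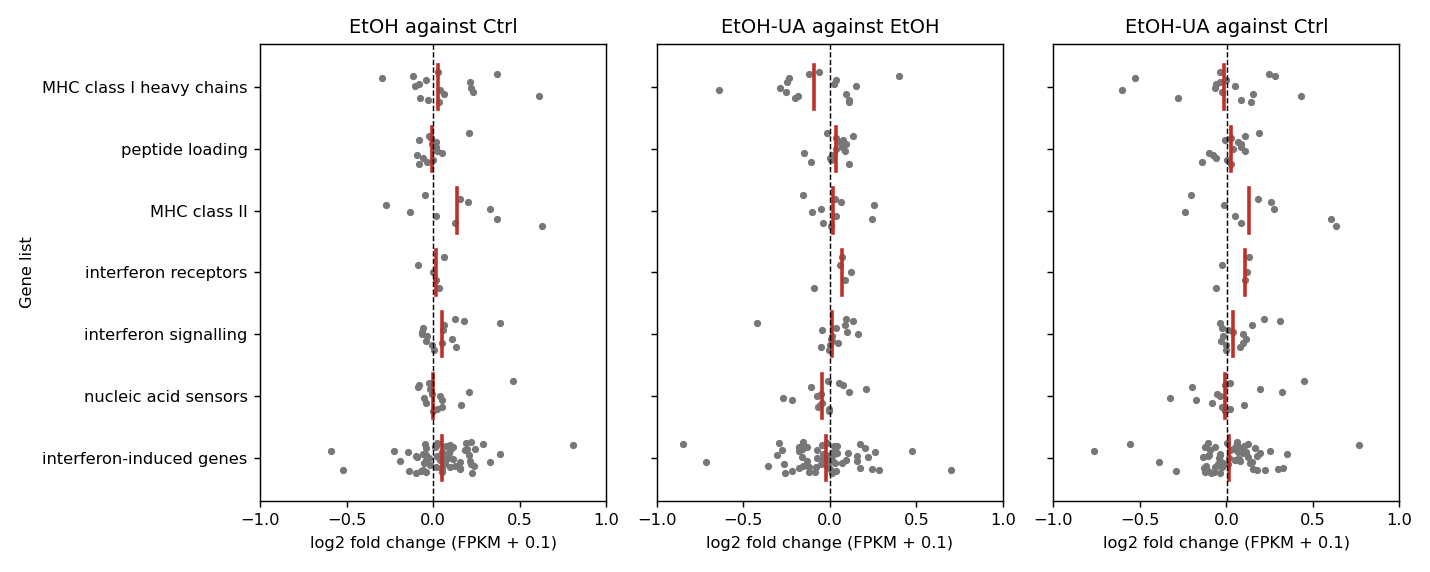
log2 fold changes (horizontal axes, on log2(FPKM + 0.1)) of the tested genes of 7 lists (vertical axis) in the 3 comparisons; each grey point is a gene, red bars are list medians and the dashed line is the median of all genes tested. The medians of the interferon-induced list lie at 0.05, -0.02 and 0.01, inside the cloud of points.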

How the data were processed

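Poly(A)-selected hippocampal RNA was sequenced by the authors on a BGI platform according to the methods of the study, while the labels name total RNA and an MGISEQ protocol. The submitters' processing notes list HISAT2 2.1.0, Bowtie2 2.2.5, RSEM 1.2.8, StringTie and DESeq. The methods name the genome mm10 with other versions of Bowtie2 and RSEM. The deposited unit is FPKM per gene, computed by the authors from RSEM estimates and given to 2 decimals, so count models were not used. Library totals are not given in the sources used here, and depth was estimated from the steps of low values, taken as even within 0.0051 FPKM plus 0.002 per step. Such estimates cover counting error only.

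Columns of the table were assigned to Ctrl (9), EtOH (7) and EtOH-UA (7) by their names, which carry animal numbers but not the replicate numbers of the labels. According to the methods of the study several mice were housed in each cage, but the names do not give which mice shared cages or batches. The p-values therefore treat the mice as independent, and shared cages or batches were not modelled. The fit used limma 3.58.1 (R 4.3.3) for genes whose mean was 0.1 FPKM or more, on log2(FPKM + 0.1) with trended eBayes over all 23 mice and Benjamini-Hochberg adjustment. It was tested on simulated data. Exact permutation tests were run in Python 3.11.15. Correlations used 100000 permutations within groups, with adjustment over all genes against a member or over all 135 marker relations. Alternatives were the pseudocounts 1 and 0.01, no filter and a filter at 1 FPKM, only the groups compared, 3 scalings, robust eBayes, array quality weights and each mouse left out.

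The 9 genes and the gene lists were chosen with earlier results of these data known. Genes named from a list are those with an unadjusted p under 0.05 (at most 3 per direction and comparison), otherwise the most abundant gene, together with direct relatives of the 9 and, for each arm, the 5 genes most like it. Gene positions and promoters are RefSeq on GRCm38.p6, and promoters matched for 9 of 9 genes. Transcript lengths are GENCODE M21. Of the listed genes, H2-T9, Mx1, Mx2, Oas1b, Ighm and 5 interferon ligands were not analysed here. The sensors RIG-I, STING and cGAS were listed under an older and a newer symbol each, and 1 symbol of each pair was in the table. A further 1 of the listed microglia markers and 1 of the oligodendrocyte markers are not reported here and were left out of the sums.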

Additional observations from a re-analysis of the deposited data

Results flagged for a closer look

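In 27 sets of values (9 genes in 3 groups, log2(FPKM + 0.1)), 6 held a mouse whose gap to the nearest other mouse took an unusually large share of the range of its group by Dixon's criterion, where chance gives about 1 in 20, or 1.35. In the EtOH-UA group the highest mouse stood apart for B2m, with a share of 0.699, and for H2-K1, with 0.607, and it is the mouse with the highest summed FPKM. In the EtOH group the highest Tap1 mouse had a share of 0.743 and the lowest Ifit1 mouse one of 0.620. The lowest Ifit1 mouse of the EtOH-UA group had a share of 0.573, and the lowest Ifit3 mouse of the Ctrl group one of 0.629.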

How the results depend on the processing

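The 885 values of the 9 genes under the alternatives held no adjusted p under 0.05, and 12 had an unadjusted p under 0.05, all of them for Ifit3, Ifitm3 or Ifit1. Other scalings moved the median of all genes by at most 0.046 (log2). Array quality weights called 1 gene, none of the 9, in EtOH against Ctrl, and leaving out 1 mouse gave from 0 to 1 called genes in each comparison. Fold changes near 0 changed sign. For EtOH against Ctrl array weights gave -0.0592 for H2-K1, -0.0583 for Irf7 and -0.0315 for Ifitm3, and quantile normalization gave -0.00622 for Irf7. For EtOH-UA against EtOH, Bst2 was -0.0485 at equal sums and -0.0187 with upper-quartile scaling. For EtOH-UA against Ctrl array weights gave -0.0485 for B2m, -0.11 for Irf7 and 0.0491 for Ifit1, equal sums gave -0.0157 and quantile normalization -0.00919 for Irf7. The cause was not tested.

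With each mouse left out in turn, values for EtOH against Ctrl ran from -0.0638 to 0.10 for H2-K1, -0.0903 to 0.00740 for H2-D1, -0.0733 to 0.18 for Irf7, -0.16 to 0.000275 for Ifit3 and -0.0214 to 0.13 for Ifitm3. For EtOH-UA against EtOH they ran from -0.20 to 0.0821 for Irf7 and -0.17 to 0.0956 for Bst2. For EtOH-UA against Ctrl they ran from -0.0715 to 0.0723 for B2m, -0.14 to 0.0777 for Irf7, -0.13 to 0.13 for Ifit1 and -0.0129 to 0.24 for Bst2. The pseudocounts, the filters, robust eBayes and the fits on only the groups compared kept the direction of every fold change that they covered. Irf7 and Ifit1, with means of 0.987 and 0.715 FPKM, fell below the filter at 1 FPKM and have no value under it.

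In the 9 Ctrl mice alone r was 0.66 for H2-K1 and H2-D1, 0.38 for B2m and H2-K1, 0.56 for B2m and Irf7, 0.52 for H2-K1 and Irf7, 0.46 for Irf7 and Ifit1 and 0.49 for Ifit1 and Ifit3, none with an exact permutation p under 0.05 at this number of mice. Leaving out 1 mouse gave 0.44 to 0.63 for Irf7 and Ifit1. No paired analysis was possible because the columns carry animal numbers that do not match the replicate numbers of the labels. Differences of Ifit1 and Irf7 inside their intervals were not detectable in these mice, whose spread exceeded counting error. The counts of list genes without the EtOH-UA mouse with the highest summed FPKM were chosen after seeing the data.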
